A study of Homo sapiens with 6 samples.

Results

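Fibroblast growth factor (FGF) ligand, receptor and binding protein genes were examined in the human pancreatic carcinoma line L3.6pl, whose cells had been separated by FACS into those with surface L1CAM (L1high) and those with little or none (L1low). The 9 genes (FGF18, FGF2, FGF19, FGFR1, FGFR2, FGFR3, FGFR4, FGFRL1 and FGFBP1) were chosen by name from 19469 genes in the table of read counts, with earlier results of these data known. All 9 were present and passed the filter on low counts, as did 19467 of the genes. Each group had 3 mRNA libraries of untreated cells grown in DMEM with serum, and both groups came from the same line. A cell line field in the sample labels reads L6.6pl where the titles read L3.6pl, and the labels do not say whether replicates came from separate cultures or sorts, so that p-values measure the spread between these libraries.

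FGFs are signalling proteins, most of them secreted, that bind FGF receptors (FGFR1 to FGFR4), tyrosine kinases of the cell surface, together with heparan sulfate chains. Bound receptors phosphorylate the adaptor FRS2 and start the RAS-MAPK cascade, which in turn induces feedback inhibitors such as sprouty proteins and dual-specificity phosphatases. L1CAM, the adhesion molecule used here for sorting, is known to bind FGF receptors through its fibronectin domains. In epithelia FGFR2 and FGFR3 are typical receptors, and FGF-binding protein 1 (FGFBP1) releases FGFs from the matrix.

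Library totals lay between 16334610 and 21064685 counts. The sorting marker L1CAM averaged 81.1 ± 10.2 CPM in L1high and 20.5 ± 3.01 CPM in L1low cells (SD, n = 3 each), where CPM is a library's count of a gene relative to its TMM-scaled total. Of 6 markers of pancreatic ductal epithelium, all 6 were in the table, with summed levels of 4233 to 4784 CPM in the L1high and 4780 to 5130 in the L1low libraries. Within that list KRT19 was higher in L1low cells (881 ± 60.6 CPM in L1high and 1363 ± 61.3 in L1low, SD, n = 3 each, log2 fold change 0.63, adjusted p = 1.4e-04 in edgeR's quasi-likelihood test) and EPCAM was lower (237 ± 26.95 and 193 ± 7.02 CPM, SD, n = 3 each, log2 fold change -0.30 with an adjusted p of 0.0496 by edgeR, called under 8 of 13 alternatives). KRT8 was at 991 ± 77.6 and 847 ± 48.4 CPM (SD, n = 3 each) without overlap of the groups, and was not called (adjusted p = 0.080 in the same edgeR test). KRT7 went the other way, from 1624 ± 89.6 to 1819 ± 81.2 CPM (SD, n = 3 each), also without overlap. It was not called (adjusted p = 0.14 in the same edgeR test). CDH1 and KRT18, with log2 fold changes of -0.04 and -0.01, were not called either. The part of these marker differences in the results on FGF genes was not tested. None of the 4 acinar and islet markers was in the table, and neither were PTPRC and CD3E of immune cells, VWF and CDH5 of endothelium, nor COL1A2, DCN, PDGFRA and PDGFRB of stroma. Of the 6 stromal markers, LUM and ACTA2 were present, and their summed level was 85.0 to 97.5 CPM in L1high and 138 to 159 in L1low libraries, most of it LUM. Which cells the LUM RNA came from, and its part in the results that follow, were not tested. PECAM1, the endothelial marker present, ran from 11.3 to 11.9 CPM in L1high and from 13.2 to 14.7 in L1low libraries, and CD68 from 8.42 to 8.815 and from 9.37 to 11.3.

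Of the FGF genes, FGF18 was lower in L1low cells and the receptors FGFR2 and FGFR3 were higher. On the fitted linear scale FGF18 was 2.97-fold lower, FGFR2 was 2.59-fold higher and FGFR3 was 1.52-fold higher in L1low cells. The other 6 genes had an adjusted p above 0.05. Of the 9 genes, 3 were thus called (edgeR's quasi-likelihood test, an adjusted p below 0.05 after Benjamini-Hochberg adjustment over all genes). Of all 19467 genes tested, 7.95% were called, 4.58% as higher and 3.37% as lower in L1low cells. That background of 1547 genes ran from 627 (without L1low replicate 2) to 1473 with 1 library left out, and was 674 without L1high replicate 1. In 6 of the 9 genes the levels of both groups did not overlap, which was so in 28.8% of all genes. Because the 9 genes were chosen with earlier results of these data known, their counts beside these shares are a description. In bulk RNA, fewer cells that express a gene and less RNA per cell cannot be told apart.

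**Figure D1:**
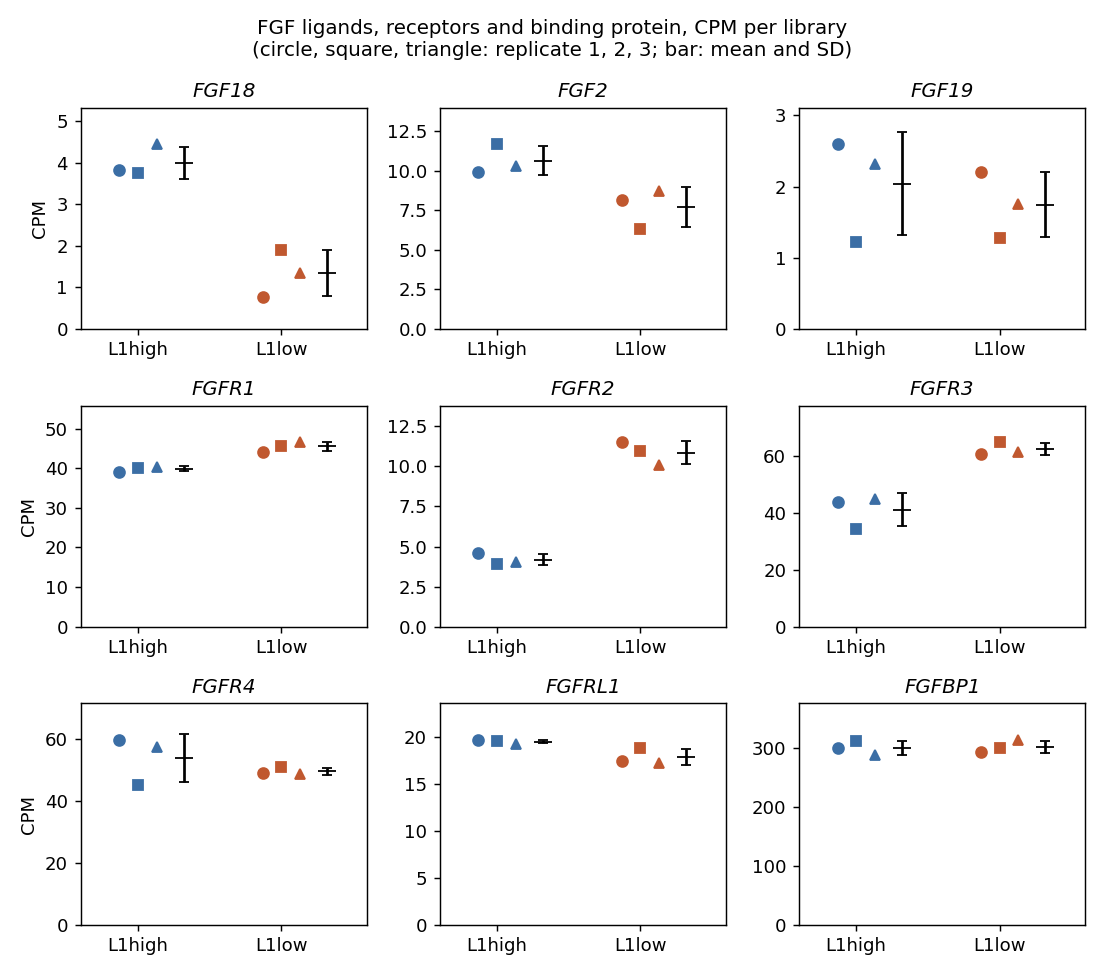
Level of each FGF gene in CPM (vertical axis, from 0, its own scale in each panel) in the 3 L1high libraries (blue) and 3 L1low libraries (orange), with the mean and SD as a bar. The L1low points lie below all L1high points for FGF18 and above them for FGFR2 and FGFR3, while the points of FGF19, FGFR4 and FGFBP1 overlap.

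The sequences before the start sites of the 3 genes that changed, and of FGFBP1 as the abundant gene without a called change, are shown to let their base composition be compared with the RNA levels. Each runs 5′ to 3′ over the 250 bases before the RefSeq start site (GRCh38.p14), with matches on either strand to the core motifs GGGCGG (GC box) and CTTTGAT (TCF/LEF) in capitals. For FGFR2, with 5 windows in the RefSeq table used here, and for FGFR4, with 2, the window at the start of GENCODE's main transcript was used.
FGF18, chr5:171419397-171419646, plus strand: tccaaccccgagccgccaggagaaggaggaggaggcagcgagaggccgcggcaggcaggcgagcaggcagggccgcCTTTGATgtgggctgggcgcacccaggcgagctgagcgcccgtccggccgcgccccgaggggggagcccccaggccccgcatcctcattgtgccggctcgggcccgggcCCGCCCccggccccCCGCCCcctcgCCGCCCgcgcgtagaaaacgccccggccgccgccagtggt
FGFR2, chr10:121598445-121598694, minus strand: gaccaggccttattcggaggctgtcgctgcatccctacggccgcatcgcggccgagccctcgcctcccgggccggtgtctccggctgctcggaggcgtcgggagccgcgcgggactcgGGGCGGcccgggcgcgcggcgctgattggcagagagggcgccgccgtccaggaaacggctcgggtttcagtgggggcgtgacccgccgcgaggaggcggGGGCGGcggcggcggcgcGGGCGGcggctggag
FGFR3, chr4:1793043-1793292, plus strand: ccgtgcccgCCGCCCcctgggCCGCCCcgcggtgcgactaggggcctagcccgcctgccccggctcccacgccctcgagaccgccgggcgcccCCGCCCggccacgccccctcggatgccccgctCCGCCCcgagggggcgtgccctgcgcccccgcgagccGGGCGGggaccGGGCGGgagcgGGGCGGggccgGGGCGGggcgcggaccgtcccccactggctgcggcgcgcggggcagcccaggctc
FGFBP1, chr4:15938741-15938990, minus strand: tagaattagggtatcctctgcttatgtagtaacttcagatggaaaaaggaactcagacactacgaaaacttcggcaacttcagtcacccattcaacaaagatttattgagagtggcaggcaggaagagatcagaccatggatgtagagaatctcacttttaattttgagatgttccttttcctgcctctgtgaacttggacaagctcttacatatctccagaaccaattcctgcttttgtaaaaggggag

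The stretches of FGF18, FGFR2 and FGFR3 consisted of 78.8%, 78.4% and 86.8% G and C, and that of FGFBP1 of 40.8%, against a median of 58.0% over 35116 such windows. FGF18 and FGFR2 each held 3 GC boxes, FGFR3 held 8 and FGFBP1 held 0, and 42.6% of all windows held at least 1. FGF18 held 1 TCF/LEF match, 174 bases before its start, and FGFRL1 held 1 in its window, which lies downstream of the start of GENCODE's main transcript and so inside the gene. Of all windows, 2.26% held one. The motifs TGANTCA (AP-1), present in 6.57% of windows, and GGAATG (TEAD), present in 11.9%, had no match in the 1 window scanned for each of 7 FGF genes. GC content did not separate the genes that changed from the others, since FGF2 and FGFR4, which were not called, had 75.2% and 79.6%. A match is a string of letters and says nothing of binding in these cells, and the motifs were picked after the sequences were seen.

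Among the ligands, FGF18 encodes a secreted factor of the FGF8 subfamily, which acts in bone and lung development and is a target of WNT signalling in colorectal tumors. FGF18 (ENSG00000156427) lies on the plus strand of chromosome 5 from 171419647 to 171457626 (GRCh38), and its main transcript has 5 exons. Its level was 3.82, 3.75 and 4.45 CPM across L1high replicates 1 to 3, against 0.771, 1.89 and 1.355 CPM across L1low replicates 1 to 3. Every L1low library lay below every L1high library, and L1low replicate 1 was the lowest. These levels rest on few reads, namely 81, 77 and 73 counts in the L1high libraries and 14, 34 and 24 in the L1low libraries. L1low over L1high, its log2 fold change came to -1.57 (standard error 0.27, 95% interval from -2.16 to -0.99, adjusted p = 0.0040 in edgeR's quasi-likelihood test). Between L1low libraries the coefficient of variation was 41.9%, with 20.4% from counting error alone, and between L1high libraries it was 9.61%, where counting error gives 11.4%. Without L1low replicate 1 the log2 fold change was -1.29, and without L1low replicate 2 it was -1.91. It was called in both cases.

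FGF2, a ligand without a classical secretion signal that binds several receptors, showed a smaller difference. It stood at 9.95, 11.7 and 10.3 CPM across L1high replicates 1 to 3, against 8.15, 6.30 and 8.75 CPM across L1low replicates 1 to 3. The groups did not overlap, and L1low replicate 2 was the lowest. The log2 fold change of -0.46 (standard error 0.14, 95% interval from -0.78 to -0.15) missed the threshold after adjustment (adjusted p = 0.077 in edgeR's quasi-likelihood test). FGF2 overlaps NUDT6, a gene on the opposite strand, over 9540 bases, and the sources used here do not state whether the reads were counted by strand. NUDT6 stood at 9.52, 10.2 and 8.65 CPM across L1high replicates 1 to 3, against 8.75, 6.57 and 9.88 CPM across L1low replicates 1 to 3, again lowest in L1low replicate 2, and its log2 fold change was -0.17 (adjusted p = 0.55 in the same edgeR test).

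FGF19, a hormone-like FGF of the gut and liver axis that signals through FGFR4 with the co-receptor beta-Klotho, stood near the limit of the table. Its level was 2.59, 1.22 and 2.32 CPM across L1high replicates 1 to 3, against 2.20, 1.28 and 1.75 CPM across L1low replicates 1 to 3, on 23 to 55 counts per library. Replicate 2 was the lowest library of both groups, and the groups overlapped. The log2 fold change of -0.22 had a 95% interval from -0.90 to 0.46, so that a change of the size seen in FGF2 was not detectable here. The gene of beta-Klotho, KLB, was not among the genes of the table, which holds only genes above 1 CPM in at least 2 libraries.

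Among the receptors, the rise was largest in FGFR2, whose epithelial splice form is the receptor for FGF7 and FGF10. FGFR2 (ENSG00000066468) lies on the minus strand of chromosome 10 from 121478332 to 121598458 (GRCh38). It stood at 4.57, 3.94 and 4.02 CPM across L1high replicates 1 to 3, against 11.5, 10.98 and 10.1 CPM across L1low replicates 1 to 3. The lowest L1low library was thus more than 5 CPM above the highest L1high library. Its counts were 97, 81 and 66 across the L1high and 209, 197 and 179 across the L1low libraries. FGFR2 rose by 1.37 on the log2 scale (standard error 0.13, 95% interval from 1.08 to 1.67, adjusted p = 7.7e-05 in edgeR's quasi-likelihood test). The spread between libraries of a group was 8.21% (L1high) and 6.46% (L1low) of the mean, close to the 11.1% and 7.16% of counting error. Counts per gene do not separate the epithelial and mesenchymal splice forms.

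FGFR3, an epithelial receptor best known as a brake on bone growth and as an oncogene of the bladder, rose less but from a higher level. FGFR3 (ENSG00000068078) lies on the plus strand of chromosome 4 from 1793293 to 1808872 (GRCh38). Its level was 43.9, 34.5 and 45.0 CPM across L1high replicates 1 to 3, against 60.7, 64.7 and 61.5 CPM across L1low replicates 1 to 3. L1high replicate 2 was the lowest library, and all L1low libraries were higher than all L1high libraries. FGFR3 rose by 0.60 on the log2 scale (standard error 0.10, 95% interval from 0.38 to 0.82, adjusted p = 0.0037 in edgeR's quasi-likelihood test). Without L1high replicate 2 the value was 0.49, and FGFR3 was again called.

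FGFR4, the receptor of FGF19 in liver, had no called change. It stood at 59.6, 45.0 and 57.3 CPM across L1high replicates 1 to 3, against 49.15, 50.9 and 48.7 CPM across L1low replicates 1 to 3. L1high replicate 2 was the lowest library here too, and it lay below all L1low libraries while the other L1high libraries lay above them. The log2 fold change was -0.12 (95% interval from -0.35 to 0.10, adjusted p = 0.52 in edgeR's quasi-likelihood test), and it was -0.24 (adjusted p = 0.083) without L1high replicate 2.

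FGFR1, the receptor typical of mesenchymal cells, was evenly expressed within each group. Its level was 39.2, 40.2 and 40.3 CPM across L1high replicates 1 to 3, against 44.2, 45.7 and 46.5 CPM across L1low replicates 1 to 3. The groups did not overlap, but the log2 fold change of 0.19 (95% interval from 0.03 to 0.35) was not called (adjusted p = 0.15 in edgeR's quasi-likelihood test). FGFR1 overlaps LETM2 and the long noncoding RNA gene ENSG00000255201 on the opposite strand, which held at most 50 and 45 counts in a library, against 662 or more for FGFR1.

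FGFRL1, a receptor-like protein that binds FGFs but lacks the kinase domain, stood at 19.7, 19.6 and 19.3 CPM across L1high replicates 1 to 3, against 17.45, 18.8 and 17.3 CPM across L1low replicates 1 to 3. The groups did not overlap by a narrow margin. Its log2 fold change of -0.13 (95% interval from -0.33 to 0.08) was not called (adjusted p = 0.45 in edgeR's quasi-likelihood test).

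FGFBP1 (ENSG00000137440) had the highest level of the 9 genes per length of transcript, at 221 CPM per kb of exon in L1high and 223 in L1low cells. FGFR4 was at 11.2 and 10.3, and FGFR3 at 8.48 and 12.9. The CPM of FGFBP1 were 299, 310 and 288 across L1high replicates 1 to 3, against 292, 299 and 312 across L1low replicates 1 to 3. The groups overlapped, and the log2 fold change was 0.01 with a 95% interval from -0.13 to 0.15.

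**Figure D2:**
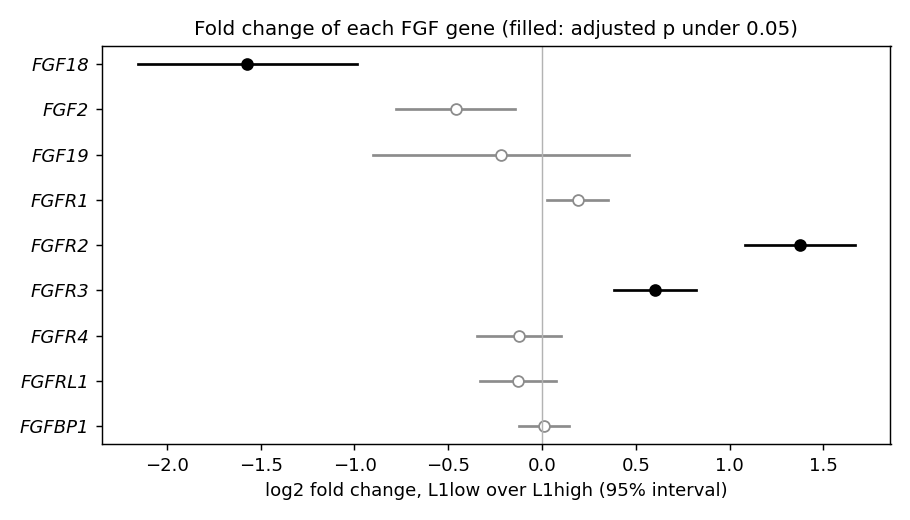
Log2 fold change of each FGF gene, L1low over L1high (horizontal axis), with its 95% interval from the fit over 6 libraries. Filled points have an adjusted p under 0.05, and these are FGF18 at -1.57, FGFR2 at 1.37 and FGFR3 at 0.60.

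The 3 calls did not depend on L1high replicate 3, which the study's own table of this comparison leaves out. Without that library the log2 fold changes were -1.49 for FGF18 (adjusted p = 0.0099), 1.36 for FGFR2 (adjusted p = 2.0e-04) and 0.68 for FGFR3 (adjusted p = 0.0020), all by edgeR's quasi-likelihood test, and no other FGF gene was called.

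The make-up of the kinase receptors within a library needs no scaling between libraries. Each receptor's share was taken of the summed level of FGFR1 to FGFR4 per length, with the union of annotated exons as length. The share of FGFR3 was 37.8%, 37.4% and 39.05% across L1high replicates 1 to 3, against 48.3%, 49.1% and 48.7% across L1low replicates 1 to 3. The share of FGFR4 was 51.7%, 49.2% and 50.2% in the L1high and 39.4%, 39.0% and 38.9% in the L1low libraries. FGFR2 held 1.01%, 1.10% and 0.900% in the L1high and 2.36%, 2.15% and 2.06% in the L1low libraries. For these 3 receptors the groups did not overlap. The shares of a library sum to 100%, so they are not independent of each other, and the level of FGFR4 itself had a log2 fold change of -0.12 without a call. The FGFR1 share averaged 10.6% ± 1.51 in L1high and 10.0% ± 0.315 in L1low cells (SD, n = 3 each), and its groups overlapped. The mean share of FGFR3 was 10.6 percentage points higher, that of FGFR2 was 1.18 points higher, and the difference for FGFR4 was -11.3 points, L1low minus L1high. With 3 libraries a group the exact two-sided permutation test cannot give less than 0.1, and this was its p for FGFR2, FGFR3 and FGFR4 (0.13 after Benjamini-Hochberg adjustment over the 4 receptors), against 0.90 for FGFR1.

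In L1high cells the order of levels per length was FGFR4, FGFR3, FGFR1 and FGFR2. In L1low cells the order of the first pair turned with the length used. Per kb of union exon FGFR3 was at 12.9 CPM and FGFR4 at 10.3, while per kb of the longest transcript they were at 14.5 and 16.0. With the longest transcript as length, the share of FGFR3 was 28.0% ± 0.960 in L1high and 36.7% ± 0.409 in L1low cells (SD, n = 3 each), that of FGFR4 51.2% ± 1.87 and 40.7% ± 0.290 (SD, n = 3 each), and that of FGFR2 1.77% ± 0.158 and 3.96% ± 0.275 (SD, n = 3 each). The FGFR1 share depended on the length used. It was 19.05% ± 2.44 in L1high and 18.6% ± 0.544 in L1low cells with the longest transcript (SD, n = 3 each), against 10.6% and 10.0% with the union of exons. FGFR2 was the lowest of the kinase receptors with both lengths and in both groups.

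Other genes of the FGF pathway were taken as lists written from general knowledge, with earlier results of these data known. Of the listed genes, 71 were in the table, and 11 of these were called, 9 higher and 2 lower in L1low cells. Of all genes tested, 7.95% were called, 4.58% as higher and 3.37% as lower. The 9 include GPC3, which passed the limit of the table only through the L1low libraries. With 1 library left out the 11 calls became 5 to 11. The median log2 fold change of the 71 genes was 0.13, against -0.01 over all genes. Because the lists were written with results known, their counts and medians, here and list by list below, are a description beside those of all genes. Of the 19 other FGF genes, 3 were in the table, all of them intracellular FGF homologues, and none was called by edgeR. FGF11 had a log2 fold change of 0.52, FGF12 of -0.25 and FGF14 of -0.47, and 2 of the 3 had an unadjusted p under 0.05, as did 23.3% of all genes tested. The other secreted FGF genes, FGF7 and FGF10 among them, were not among the genes of the table.

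Of 27 genes for co-receptors, heparan sulfate proteoglycans and their enzymes, 22 were in the table, 3 rose, 1 fell and 18 were not called (7.95% of all genes were called), with a median log2 fold change of 0.18. SDC2, the core protein of syndecan-2, fell from 10.6 ± 0.930 CPM in L1high to 6.43 ± 0.339 in L1low cells (SD, n = 3 each), which is a log2 difference of -0.72 ± 0.13 (standard error), with an adjusted p of 0.0048 in edgeR's quasi-likelihood test. ANOS1, whose product anosmin-1 binds FGFR1 and heparan sulfate, rose from 7.19 ± 0.561 to 11.3 ± 0.770 CPM (SD, n = 3 each), a log2 fold change of 0.65. HSPG2, which encodes perlecan, a heparan sulfate proteoglycan of basement membranes, rose from 30.8 ± 8.27 to 51.6 ± 2.65 CPM (SD, n = 3 each), with L1high replicate 2 the lowest library at 21.3. GPC3, the core protein of glypican-3, rose on few reads, with 11, 11 and 8 counts in the L1high and 29, 16 and 24 in the L1low libraries. All 3 L1high libraries lay below 1 CPM, so GPC3 entered the table only through the group where it was high. It is included in the 3 genes that rose here and in the 9 higher and 11 called over all lists. Its rise is no support for the list. The most abundant syndecan gene by CPM, SDC1, had a log2 fold change of 0.20 and was not called (adjusted p = 0.096 in edgeR's quasi-likelihood test). Of these calls SDC2 and ANOS1 were made under all 13 alternatives, HSPG2 under 12 (not without L1low replicate 2) and GPC3 under 6 of 12, its call being lost in DESeq2 and without any 1 library other than L1low replicate 2.

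Among 23 adaptors and signal transducers, 2 rose and 21 were not called, a share near the 7.95% called over all genes, with a median log2 fold change of 0.07. SHC1, an adaptor that links receptor tyrosine kinases to GRB2, rose from 419 ± 21.4 to 609 ± 23.1 CPM (SD, n = 3 each), which is a log2 difference of 0.54 ± 0.06 (standard error), with an adjusted p of 3.0e-04 in edgeR's quasi-likelihood test. PIK3R1, the regulatory subunit of PI3-kinase, rose from 12.3 ± 0.499 to 17.9 ± 1.96 CPM (SD, n = 3 each), a log2 fold change of 0.55, and was not called without L1high replicate 1 or without L1low replicate 2. FRS2, the docking protein of FGF receptors and of some other receptor kinases, had a log2 fold change of -0.21 (95% interval from -0.52 to 0.11).

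Of 20 genes listed as FGF-responsive or feedback genes, 19 were in the table, with a median log2 fold change of 0.17. Of these 19 genes, 4 rose, 1 fell and 14 were not called (7.95% of all genes were called). Of these 5 calls, DUSP6 was the only one kept with each library left out in turn. These genes answer to other growth factor receptors as well. DUSP6, a phosphatase that inactivates ERK, rose from 259 ± 20.7 to 388 ± 19.65 CPM (SD, n = 3 each), which is a log2 difference of 0.58 ± 0.07 (standard error), with an adjusted p of 5.1e-04 in edgeR's quasi-likelihood test, and was called under all 13 alternatives. EGR1, an immediate early transcription factor, rose by a log2 fold change of 0.32 and FOS by 0.23. SPRED3, an inhibitor of the RAS-MAPK cascade, rose by 0.99 on 16 to 42 counts per library. DUSP4, a nuclear phosphatase of the same family as DUSP6, fell from 404 ± 11.9 to 345 ± 12.0 CPM (SD, n = 3 each), a log2 fold change of -0.23. The ETV4 and ETV5 genes, transcription factors often used as readouts of FGF activity, had log2 fold changes of -0.20 and -0.16 and were not called (adjusted p = 0.14 and 0.22 in edgeR's quasi-likelihood test). SPRY1, SPRY2 and SPRY4 had values of 0.31, 0.01 and -0.14 on the log2 scale and were not called either. EGR1, FOS, DUSP4 and SPRED3 all lost their call without L1high replicate 1 and without L1low replicate 2. FOS and SPRED3 also lost it without L1high replicate 2, FOS, DUSP4 and SPRED3 without L1low replicate 1, DUSP4 and SPRED3 without L1low replicate 3, DUSP4 without L1high replicate 3, and SPRED3 in DESeq2.

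None of the 4 splicing regulators was called by edgeR. ESRP1 and ESRP2, which promote the epithelial splice form of FGFR2, had log2 fold changes of -0.07 (95% interval from -0.26 to 0.12) and -0.09 (95% interval from -0.25 to 0.06), and 1 of the 4, RBFOX2, had an unadjusted p under 0.05 (23.3% of all genes did), with a log2 fold change of 0.27 (adjusted p = 0.068).

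**Figure D3:**
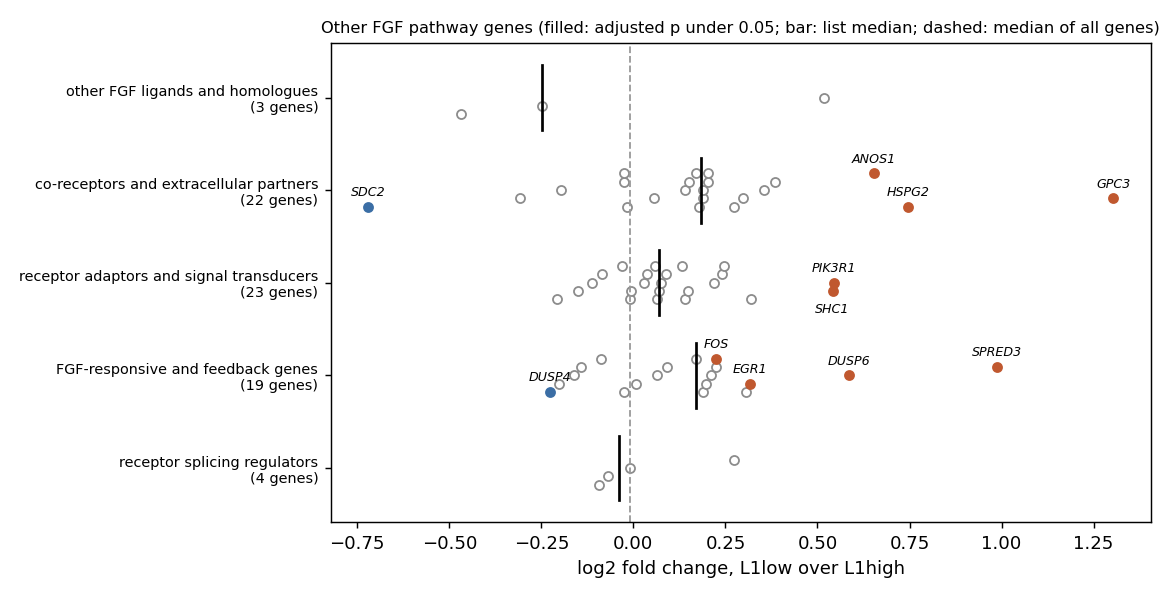
Log2 fold change, L1low over L1high (horizontal axis), of each gene in 5 lists of other FGF pathway genes, with the list median as a bar and the median of all genes as a dashed line. Filled and named points were called, orange for the 9 genes that rose and blue for SDC2 and DUSP4, and most genes lie between -0.5 and 0.5.

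Across the 6 libraries the pattern of FGF18 was compared with that of 17102 genes of an average log2 CPM of at least 1. The highest Pearson correlations of log2 CPM over these 6 libraries were those of GDF15 (r = 0.996), PCSK6 (0.996), ENSG00000285816 (0.994), C6orf47 (0.992) and ACOX2 (0.992). The order of the L1low libraries, lowest in replicate 1 and highest in replicate 2, was that of FGF18 in all 5. GDF15, a stress-induced cytokine of the TGF-beta superfamily, had a log2 fold change of -0.64, and ACOX2, a peroxisomal oxidase, of -0.81. PCSK6, a proprotein convertase, had a log2 fold change of -0.19 and was not called (adjusted p = 0.16 in edgeR's quasi-likelihood test). With 6 libraries in 2 groups and 17102 genes compared, such values are a description. Among the FGF genes, the correlation with FGF18 was lowest for FGFR2 (r = -0.92) and highest for FGFRL1 (r = 0.92). The difference between groups enters all of these values.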

How the data were processed

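The authors sequenced TruSeq stranded mRNA libraries, aligned trimmed paired-end reads with BWA (GRCh38) and used featureCounts with Ensembl release 94 to obtain gene counts. The submitters' processing notes also name DESeq2 and GRCh38.p13. Versions, strand and multi-mapping options are not given in the sources used here. The deposited values are raw read counts per gene, and every gene exceeded 1 CPM in at least 2 of 6 libraries, so genes of lower expression were not analysed here. BWA is not a splice-aware aligner, and its effect on these counts was not tested.

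From these counts, L1low was compared with L1high over all 6 libraries in R 4.3.3 with edgeR 4.0.16 (TMM factors, filterByExpr, quasi-likelihood test, Benjamini-Hochberg adjustment over all genes tested), and a gene was called where its adjusted p was under 0.05. Standard errors are the log2 fold change divided by the square root of F. Intervals are 95% and use the t distribution of the fit. The labels give 3 libraries a group and the methods name none to leave out, so the set without L1high replicate 3 was an alternative. Alternatives left out 1 library at a time, blocked on replicate number, used DESeq2 1.42.0, or changed the scaling (3 others) or the filter on low counts (2 others). Receptor shares were compared by an exact permutation test over libraries with scipy 1.17.1.

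Symbols, positions and lengths came from GENCODE release 44 (GRCh38), which matched 19344 of 19469 identifiers. Promoter sequences came from RefSeq (GRCh38.p14), with entries used for 7 of the 9 genes. The fit was tested on simulated data. The closest libraries of a group differed by a chi-square of 3.66 per degree of freedom, more than sampling noise.

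The FGF genes, the lists and the motifs were chosen with earlier results of these data known. Genes named are the 9 FGF genes, L1CAM, the called genes of each list (up to 4 in each direction), the 5 genes most like FGF18, and genes overlapping a named FGF gene. Genes named without a call (ACTA2, PECAM1, CD68, KRT7, KRT8, KRT18, CDH1, marker genes absent from the table, FGF7, FGF10, FGF11, FGF12, FGF14, KLB, SDC1, FRS2, ETV4, ETV5, SPRY1, SPRY2, SPRY4, ESRP1, ESRP2 and RBFOX2) fall outside this rule and were picked after their values were seen.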

Additional observations from a re-analysis of the deposited data

How the results depend on the processing

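FGF18, FGFR2 and FGFR3 kept their direction and their call under all 13 alternatives, with log2 fold changes from -1.91 to -1.29 (adjusted p from 4.7e-05 to 0.019), from 1.33 to 1.45 (adjusted p from 2.0e-11 to 0.0013) and from 0.49 to 0.68 (adjusted p from 6.5e-06 to 0.034) in edgeR and DESeq2. With the replicate block FGF2 was called as well (log2 fold change -0.47, adjusted p = 0.047 in edgeR), and over the 13 alternatives its adjusted p ran from 0.047 to 0.28. FGFBP1 turned sign with library-size scaling (-0.0018) and ran from -0.0085 to 0.038 with 1 library left out, and FGF19 ran from -0.495 to 0.0090, above 0 without L1high replicate 1. Neither FGFBP1 nor FGF19 was called under any alternative.

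The count of all genes called was 1547, and it ran from 627 (without L1low replicate 2) to 1473 with 1 library left out (674 without L1high replicate 1), with 393 to 859 higher and 234 to 614 lower in L1low cells. Called genes of the pathway lists, 11 in all, ran from 5 (without L1high replicate 1 or L1low replicate 2) to 11 with 1 library left out, were 7 without L1low replicate 1, and were 14 with the replicate block. The cause was not tested. With the replicate block 2363 genes were called, 1143 of them lower. Same-numbered libraries deviated together with correlations of 0.074, 0.091 and 0.21, each library closest to its own number, but not all above 0.1, so the numbers were not taken as pairs.

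With the longest transcript as length the share differences, L1low minus L1high, were 2.19 points for FGFR2 and 8.74 for FGFR3, and with raw counts they were 3.45 for FGFR2, 7.58 for FGFR3 and -9.20 for FGFR4. With 1 library left out that of FGFR1 ran from -1.05 to 0.339, above 0 without L1high replicate 2. No scaling moved the median of all genes by more than 0.02 on the log2 scale. The filter on low counts removed 2 genes and tests little. Low counts limit FGF18 and FGF19 most.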
